A study of Homo sapiens with 2 samples.

Results

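The aminoacyl-tRNA synthetase genes of NCI-H460 cells were described in RNA sequencing libraries made with and without an siRNA against CYP4F11. The genes were taken by symbol from the deposited count table: 20 cytosolic enzymes, 16 mitochondrial enzymes whose names end in ARS2, and 3 scaffold proteins that hold cytosolic enzymes together, which makes 39 of 58735 genes. NCI-H460 is a human large cell lung carcinoma line, derived from a pleural effusion according to its labels. The siCYP4F11 library came from cells labelled as CYP4F11 knockdown. The siControl library came from cells labelled WT that had been transfected without that siRNA, and no control sequence is named. Cells of both groups grew in RPMI-1640 with serum and antibiotics. The labels describe siRNA transfection with Lipofectamine RNAiMAX for 24 h, and they place both libraries in the same batch. Each group had 1 library, so no difference below has a replicate check, no p-value was computed, and every value compares these 2 libraries only.

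An aminoacyl-tRNA synthetase joins an amino acid to the tRNAs that read its codons, the step that fixes the meaning of the genetic code. The cytosol and the mitochondrion use separate enzymes for most amino acids, and both sets are encoded in the nucleus. The enzymes fall into class I and class II by the fold of the catalytic domain. In animal cells some cytosolic enzymes sit in a multisynthetase complex, built on the scaffold proteins AIMP1, AIMP2 and EEF1E1 (also called AIMP3). Many cytosolic synthetase genes belong to the amino acid response, in which the transcription factor ATF4 binds C/EBP-ATF elements. The series title asks how loss of CYP4F11, a fatty acid omega-hydroxylase, affects growth and movement of these cells, and it names no synthetase.

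The start regions of the synthetase genes are shown because the C/EBP-ATF element is the sequence feature best known for this family. RefSeq windows of 300 bases (GRCh38.p14), from 250 bases before a transcription start to 50 after it, were found for 33 of the 39 genes, as 45 windows. There was no entry for LARS, VARS, YARS, DARS, AARS2 or VARS2. The letters TGATGNAA, the core of the C/EBP-ATF element, were searched on both strands. They stood in 7 of 21 windows of cytosolic genes (33.3%), in 1 of 18 windows of mitochondrial genes (5.56%) and in 0 of 6 windows of scaffold genes, beside 3.62% of all 35116 windows. In the 45 windows no match to these letters overlapped a match to the E-box searched below. The stretches of 60 bases around each TGATGNAA match follow, read on the strand of the gene, with the match in capitals. TTNCATCA is the same motif on the other strand.
AARS, chr16:70289660-70289719, minus strand: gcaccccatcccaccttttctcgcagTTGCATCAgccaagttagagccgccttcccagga
CARS, chr11:3057392-3057451, minus strand: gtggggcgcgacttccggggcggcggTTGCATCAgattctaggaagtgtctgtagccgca
GARS, chr7:30594819-30594878, plus strand: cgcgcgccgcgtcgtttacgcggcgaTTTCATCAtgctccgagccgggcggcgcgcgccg
IARS, chr9:92293677-92293736, minus strand: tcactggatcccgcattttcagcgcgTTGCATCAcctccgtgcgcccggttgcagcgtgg
MARS, chr12:57488038-57488097, plus strand: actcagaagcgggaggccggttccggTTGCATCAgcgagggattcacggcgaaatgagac
NARS, chr18:57621789-57621848, minus strand: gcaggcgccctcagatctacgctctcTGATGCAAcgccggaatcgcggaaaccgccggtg
TARS, chr5:33440941-33441000, plus strand: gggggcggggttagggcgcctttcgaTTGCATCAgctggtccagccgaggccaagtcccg
YARS2, chr12:32756061-32756120, minus strand: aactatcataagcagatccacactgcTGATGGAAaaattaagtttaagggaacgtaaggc
A match is a description of letters and not a binding site. The E-box letters CACGTG, which read the same on both strands, stood in 1 of the 21 cytosolic windows (IARS), in 4 of the 18 mitochondrial windows (MARS2, CARS2 and 2 overlapping windows of EARS2) and in 1 of the 6 scaffold windows (AIMP2), beside 7.26% of all windows. The EARS2 match is shown because EARS2 was among the mitochondrial genes furthest below the control, so it was picked by its value. Its log2 ratio of siCYP4F11 over siControl was -0.36. The other genes with E-box letters were above 0: MARS2 at 0.02, CARS2 at 0.05, IARS at 0.20 and AIMP2 at 0.27. A relation of these letters to the ratios was not tested.
EARS2, chr16:23557333-23557392, minus strand: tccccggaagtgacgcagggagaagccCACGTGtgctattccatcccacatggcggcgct

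The libraries held 13002179 counts for siCYP4F11 and 16207785 for siControl. CYP4F11 had 972 counts in siCYP4F11 and 3180 in siControl, which is 37.8% of the control level (95% counting interval 35.1% to 40.6%). Of 5 epithelial markers, KRT8, KRT18 and KRT19 were measured while EPCAM had 8 and 6 counts and CDH1 had 0 and 1, siCYP4F11 given before siControl. All 5 genes listed as driven by NRF2 in KEAP1-mutant lung lines were measured, as were 0 of 5 alveolar and airway markers. Of 7 leukocyte, endothelial and fibroblast markers, COL1A1 and DCN were measured, at under 3 CPM (counts after scaling to equal library totals) in both libraries. Differences are given as the log2 ratio of siCYP4F11 over siControl, so that a positive value means higher in siCYP4F11. The ratios were taken after library-size scaling, each with a 95% interval that covers counting error only. A gene was called measured at a mean CPM of at least 1, which held for 13942 genes. It was called higher or lower if the interval excluded 0 and the log2 ratio lay at or beyond 0.32 in either direction.

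The synthetase genes as a family were nearly level between the libraries. Of the 39 genes 38 were measured, SARS2 being the exception. By this rule 0 of the 38 were called higher, beside 6.92% of all measured genes, and 2 were called lower (5.26%), beside 8.62% of all measured genes. The 2 were the mitochondrial enzymes AARS2 and EARS2. Among genes at a mean CPM of 20 or more, which leaves 33 members, 0 members were called higher and 1 lower, beside 5.4% and 6.15% of all genes at that level. At 1.5-fold no member passed in either direction, beside 2.04% of measured genes higher and 3.44% lower. At 2-fold none passed either, beside 0.703% higher and 1.26% lower. The median log2 ratio was 0.05 over the 38 genes, 23 of them above 0 and 15 below, beside -0.0055 over all measured genes. Set against genes of their own expression level, all 38 members lay within the middle 95% of log2 ratios. That range ran from -0.36 to 0.29 for the 507 genes whose mean CPM reached 300, and from -0.57 to 0.50 for the 3286 genes from 10 to 30. In RNA from a whole culture, fewer cells carrying a transcript and less of it per cell cannot be told apart.

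**Figure D1:**
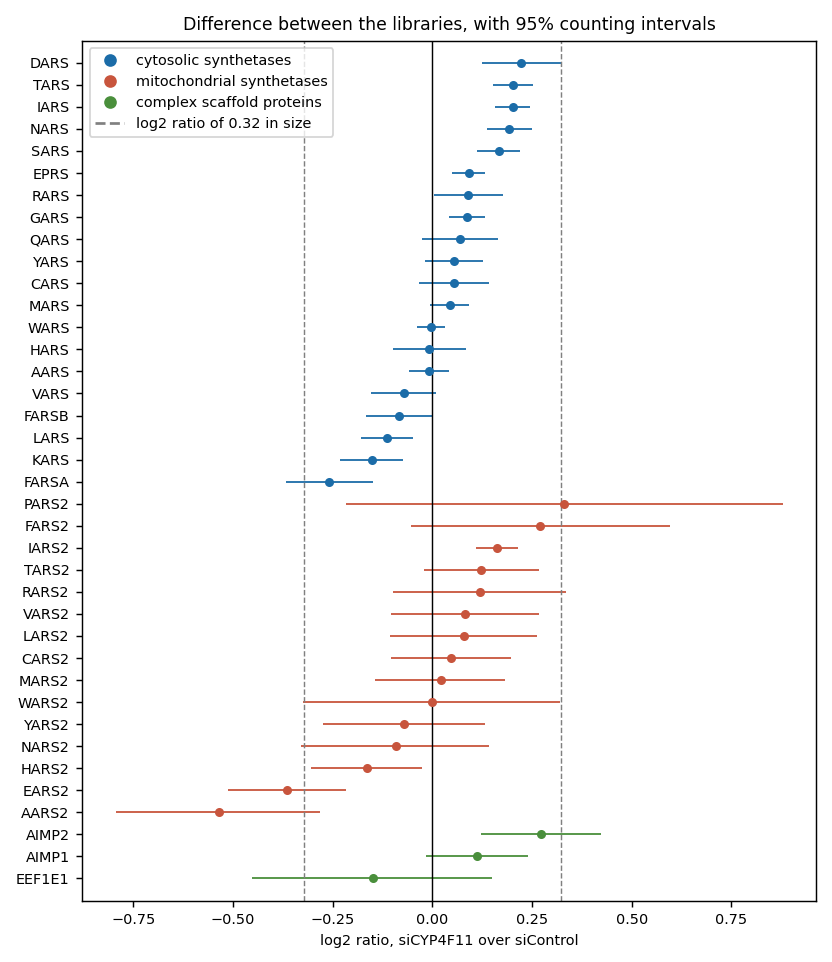
The log2 ratio of siCYP4F11 over siControl is plotted for each of the 38 measured genes, as a point with its 95% counting interval. Dashed lines mark log2 ratios of 0.32 in size, and AARS2 and EARS2 are the genes whose points lie beyond the lower line, while PARS2 lies beyond the upper line with an interval that holds 0.

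The cytosolic enzymes were the more abundant set, and their values are given on a scale that corrects for gene length, TPM (counts per base of gene model, scaled to the same total in each library). Their median level was 148 TPM in siCYP4F11 and 155 TPM in siControl. The mitochondrial enzymes had a median of 18.2 TPM in siCYP4F11 and 19.1 TPM in siControl, and the scaffold proteins one of 68.6 TPM in siCYP4F11 and 63.8 TPM in siControl. The cytosolic and mitochondrial medians fell partly on different genes in the 2 libraries. They do not give a change per gene, for which the median log2 ratio was 0.05 in both sets. WARS, the tryptophan enzyme, stood highest at 468 TPM in siCYP4F11 and 471 TPM in siControl. GARS, the glycine enzyme, followed at 446 TPM in siCYP4F11 and 422 TPM in siControl, and EPRS, the enzyme for glutamate and proline, at 378 TPM in siCYP4F11 and 356 TPM in siControl. In siControl these levels differed beyond their counting intervals. CARS, for cysteine, was the lowest cytosolic enzyme at 47.4 TPM in siCYP4F11 and 45.8 TPM in siControl. It did not differ beyond its interval from the next gene down, MARS2.

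Among the mitochondrial enzymes IARS2, for isoleucine, stood apart in level. It had 318 TPM in siCYP4F11 and 286 TPM in siControl, while the next mitochondrial gene, HARS2 for histidine, had 47.3 TPM in siCYP4F11 and 53.3 TPM in siControl. IARS2 was also the only mitochondrial gene of 12 name pairs above its cytosolic partner in length-corrected level: IARS over IARS2 was 0.841 in siCYP4F11 and 0.818 in siControl. The widest of these level ratios was WARS over WARS2, at 50.4 in siCYP4F11 and 50.5 in siControl. The order of all 39 levels was much the same in both libraries. The rank was equal for 18 genes, and the largest shift was 3 places. Of the 38 neighbouring pairs in the siControl order, 17 had overlapping counting intervals.

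**Figure D2:**
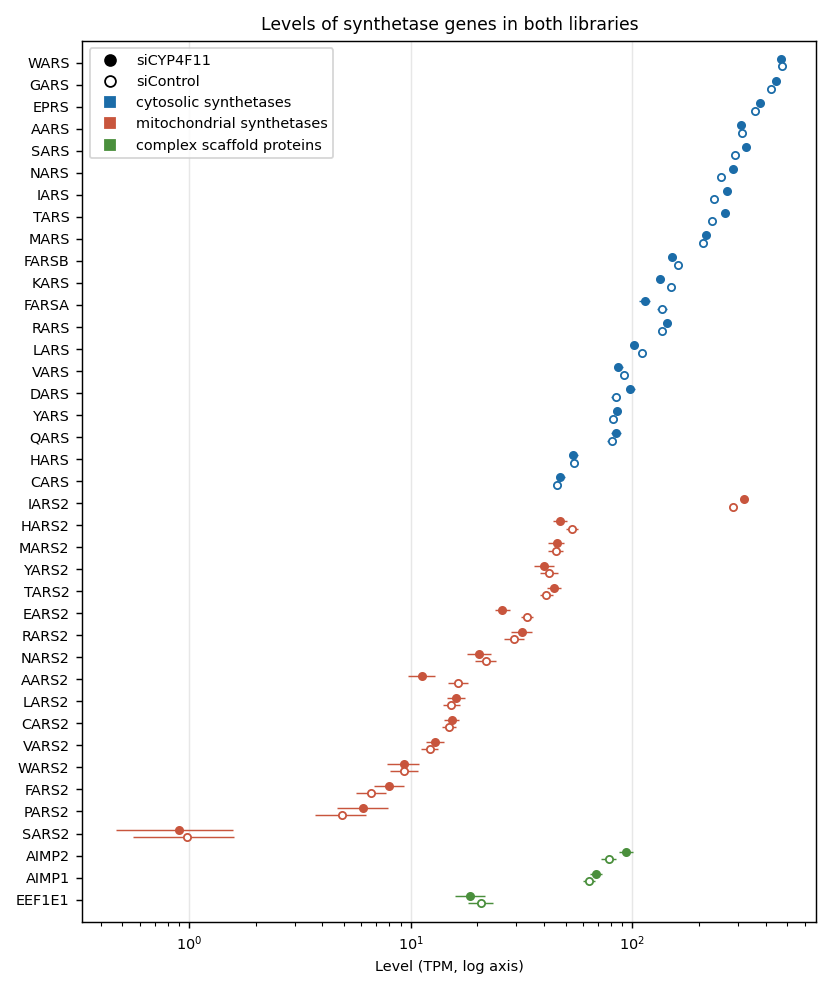
The level of all 39 genes in TPM is plotted on a log axis, with filled points for siCYP4F11, open points for siControl and bars for 95% Poisson intervals of the counts. The cytosolic enzymes lie from 45.8 to 471 TPM in siControl, and IARS2 is the mitochondrial gene that reaches their upper range.

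The cytosolic enzymes together took 0.673% of counts in siCYP4F11 and 0.639% in siControl. Their summed counts were 87440 in siCYP4F11 and 103521 in siControl, a log2 ratio of 0.06 (0.05 to 0.08). The median over the 20 genes was 0.05, with 12 above 0 and 8 below. None was called higher or lower, though most were counted deeply enough to resolve smaller differences. Their intervals lay wholly above 0 for 8 genes, wholly below 0 for 4 and held 0 for 8. Over all 38 measured members 10 lay wholly above 0 and 7 wholly below, beside 18.6% and 19.2% of all measured genes. At a mean CPM of 20 or more, 30.3% of the 33 members lay wholly above 0 and 18.2% wholly below, beside 25.8% and 24.6% of all 7681 genes at that level. An interval that excludes 0 was therefore common at this depth.

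The cytosolic genes furthest above the control, before any GC correction, were DARS, TARS, IARS, NARS and SARS. DARS, which charges tRNA with aspartate, had 1617 counts in siCYP4F11 and 1713 in siControl, a log2 ratio of 0.22 (0.12 to 0.32). TARS, the threonine enzyme, had 6180 counts in siCYP4F11 and 6641 in siControl, at 0.20 (0.15 to 0.25). IARS, the isoleucine enzyme, had 8151 counts in siCYP4F11 and 8764 in siControl, at 0.20 (0.16 to 0.25). Raw counts were lower in siCYP4F11 for each of these because that library was smaller. NARS, for asparagine, had 4789 counts in siCYP4F11 and 5181 in siControl, at 0.19 (0.14 to 0.25). SARS, for serine, had 5149 counts in siCYP4F11 and 5676 in siControl, at 0.17 (0.11 to 0.22). These are differences of 12.2% to 16.7% from the control level.

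EPRS, GARS and RARS were closer to the control. EPRS was at 0.09 (0.05 to 0.13) with 8472 counts in siCYP4F11 and 9836 in siControl. GARS, whose gene also makes the mitochondrial glycine enzyme, was at 0.09 (0.04 to 0.13) with 7612 counts in siCYP4F11 and 8865 in siControl. RARS, for arginine, was at 0.09 (0.0035 to 0.18) with 2021 counts in siCYP4F11 and 2348 in siControl. The next 8 genes had intervals that held 0. QARS, the glutamine enzyme, had 1635 counts in siCYP4F11 and 1927 in siControl, a log2 ratio of 0.07. YARS, for tyrosine, had 2868 counts in siCYP4F11 and 3415 in siControl, at 0.05. CARS had 1956 counts in siCYP4F11 and 2330 in siControl, at 0.05. MARS, for methionine, had 6217 counts in siCYP4F11 and 7459 in siControl, at 0.04. These 4 lay just above 0, and the 4 that follow lay at or just below it. WARS, the most abundant, had 12241 counts in siCYP4F11 and 15178 in siControl, at -0.0039 (-0.04 to 0.03). AARS, for alanine, had 5726 counts in siCYP4F11 and 7119 in siControl, at -0.0078. HARS, for histidine, was at -0.0074, and VARS, for valine, at -0.07 with 2166 counts in siCYP4F11 and 2816 in siControl. The interval of WARS is the narrowest of the set, so its level differed by no more than a few percent within counting error. Exons on the other strand cover 12.4% of MARS and 10.6% of WARS.

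The 4 cytosolic genes with intervals below 0 included both subunits of the phenylalanine enzyme, which is a tetramer of FARSA and FARSB chains. FARSA, the catalytic subunit, had 1137 counts in siCYP4F11 and 1682 in siControl, a log2 ratio of -0.26 (-0.37 to -0.15). FARSB had 2101 counts in siCYP4F11 and 2753 in siControl, at -0.08 (-0.17 to -0.0011). The intervals of the 2 subunits touched only between -0.17 and -0.15. KARS, the lysine enzyme, whose gene also makes the mitochondrial form, had 2234 counts in siCYP4F11 and 3070 in siControl, at -0.15 (-0.23 to -0.07). LARS, the leucine enzyme, had 3415 counts in siCYP4F11 and 4569 in siControl, at -0.11 (-0.18 to -0.05). Only FARSA of the 20 cytosolic genes had an interval that reached below -0.32.

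The multisynthetase complex joins enzymes that differed from each other in these libraries. Of its 8 enzymes DARS, IARS, EPRS, RARS, QARS and MARS had log2 ratios above 0, while LARS and KARS were below. Their median was 0.08, beside 0.03 for the 12 free cytosolic enzymes, of which 6 were above and 6 below 0. AIMP2, which contacts several enzymes of the complex, had 711 counts in siCYP4F11 and 728 in siControl, a log2 ratio of 0.27 (0.12 to 0.42). AIMP1, also known as the precursor of a secreted cytokine, had 939 counts in siCYP4F11 and 1075 in siControl, at 0.11 (-0.02 to 0.24). EEF1E1 had 161 counts in siCYP4F11 and 221 in siControl, at -0.15 (-0.45 to 0.15). Of the scaffold genes only AIMP2 had an interval that excluded 0, and its ratio did not reach 0.32. Exons of EIF2AK1 on the other strand cover 28.9% of the exonic bases of AIMP2, and EIF2AK1 was itself at 0.14 (0.06 to 0.21). The part of that overlap in the AIMP2 value was not tested.

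Neither class of enzyme stood apart. Cytosolic class I enzymes, with EPRS left out because it holds a domain of each class, had a median of 0.05 over 9 genes, and class II enzymes had 0.04 over 10. Among mitochondrial enzymes the medians were 0.05 over 9 class I genes and 0.02 over 6 measured class II genes.

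The mitochondrial enzymes together took 0.0860% of counts in siCYP4F11 and 0.0823% in siControl. Their summed counts were 11183 in siCYP4F11 and 13344 in siControl, a log2 ratio of 0.05 (0.02 to 0.09), of which IARS2 supplied 5453 and 6028. The median over 15 measured genes was 0.05, with 9 above 0 and 6 below. The difference of medians, cytosolic minus mitochondrial, was 0.0075. The mitochondrial genes spread further in log2 ratio, from -0.54 to 0.33, where the cytosolic genes ran from -0.26 to 0.22. They also had fewer counts, and the middle 95% of all genes is wider at lower levels. The difference in spread was not tested.

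AARS2 and EARS2 were the mitochondrial genes called lower in siCYP4F11. AARS2 lies at chr6:44299654-44313326 and EARS2 at chr16:23522014-23557731, both on the minus strand (GRCh38, GENCODE 29). AARS2, which charges mitochondrial tRNA with alanine, had 199 counts in siCYP4F11 and 357 in siControl, a log2 ratio of -0.54 (-0.79 to -0.28), or 69.0% of the control level. EARS2, the mitochondrial glutamate enzyme, had 611 counts in siCYP4F11 and 973 in siControl, at -0.36 (-0.51 to -0.22), or 77.7% of the control level. HARS2 lay below the control without reaching the threshold, with 727 counts in siCYP4F11 and 1008 in siControl, at -0.16 (-0.30 to -0.03). IARS2 was the mitochondrial gene with an interval wholly above 0, at 0.16 (0.11 to 0.21). Both called genes have GC-rich transcripts, at 58.8% for AARS2 and 56.6% for EARS2. With log2 ratios corrected for transcript GC content, AARS2 was at -0.43 (-0.69 to -0.18) and kept its call, while EARS2 was at -0.28 (-0.43 to -0.13) and no longer reached the threshold.

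The other 11 measured mitochondrial genes had intervals that held 0. NARS2, for asparagine, had 264 counts in siCYP4F11 and 348 in siControl, a log2 ratio of -0.09. YARS2, for tyrosine, had 355 counts in siCYP4F11 and 461 in siControl, at -0.07. WARS2, for tryptophan, had 147 counts in siCYP4F11 and 182 in siControl, at -0.00084. These 3 lay at or below 0, and the other 8 lay above it. MARS2, for methionine, had 565 counts in siCYP4F11 and 689 in siControl, at 0.02. CARS2, for cysteine, had 659 counts in siCYP4F11 and 789 in siControl, at 0.05. LARS2, for leucine, had 451 counts in siCYP4F11 and 528 in siControl, at 0.08. VARS2, for valine, was close to LARS2, at 0.08 with 446 counts in siCYP4F11 and 521 in siControl. RARS2, for arginine, had 332 counts in siCYP4F11 and 378 in siControl, at 0.12. TARS2, for threonine, had 744 counts in siCYP4F11 and 845 in siControl, at 0.12. The intervals of these genes were wider than those of the cytosolic enzymes because fewer reads were counted. FARS2, the single-chain phenylalanine enzyme, had 159 counts in siCYP4F11 and 163 in siControl, at 0.27 (-0.05 to 0.59). PARS2, for proline, had 59 counts in siCYP4F11 and 58 in siControl, at 0.33 (-0.22 to 0.88). Differences of the size of the threshold could not be resolved for FARS2 and PARS2 at this depth. The same held for WARS2, whose interval ran from -0.33 to 0.32. The intervals of NARS2 (-0.33 to 0.14) and RARS2 (-0.10 to 0.34) also reached past the threshold on 1 side. SARS2, for serine, had 12 counts in siCYP4F11 and 16 in siControl and was under the filter. Exons of AC011455.2 on the same strand cover 46.2% of its exonic bases, and AC011455.2 had 0 counts in both libraries.

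Cytosolic and mitochondrial enzymes for the same amino acid were set side by side in 12 name pairs with both genes measured. The cytosolic gene had the higher log2 ratio in 8 pairs and the mitochondrial gene in 4, and the median difference was 0.03. The counting intervals of the 2 genes overlapped in 11 of these name pairs. The exception was alanine, with AARS at -0.0078 (-0.06 to 0.04) and AARS2 at -0.54, a difference of 0.53. The next largest among the name pairs was asparagine, with NARS above NARS2 by 0.28. In the opposite direction LARS was below LARS2 by 0.19 (difference -0.19) and VARS below VARS2 by 0.15 (difference -0.15). Isoleucine was the name pair in which both genes had intervals above 0, and they differed by 0.04. Glutamate, proline and phenylalanine have no name pair. For glutamate, EPRS at 0.09 (0.05 to 0.13) and EARS2 at -0.36 (-0.51 to -0.22) had intervals apart. For phenylalanine, the interval of FARS2, at 0.27 (-0.05 to 0.59), lay apart from that of FARSA, at -0.26 (-0.37 to -0.15). It overlapped that of FARSB. For proline, the intervals of EPRS and PARS2 overlapped.

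**Figure D3:**
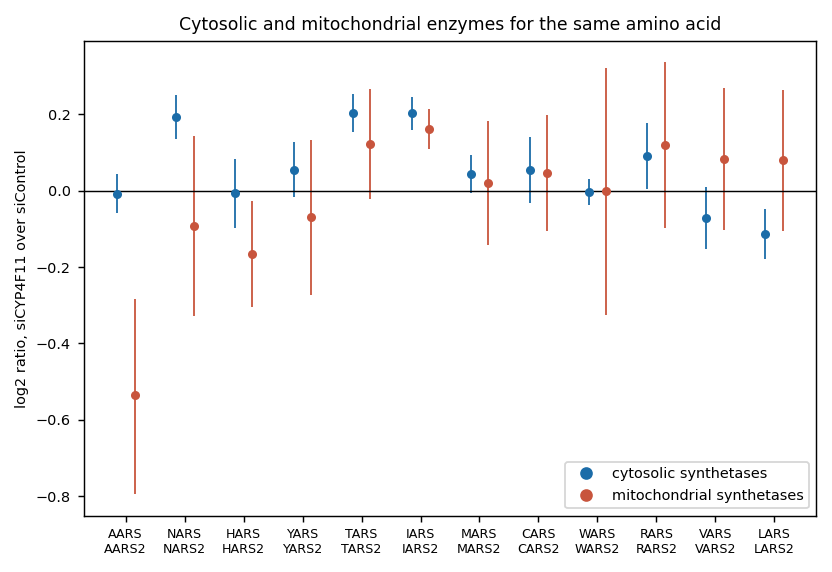
The log2 ratio of siCYP4F11 over siControl is plotted for 12 cytosolic enzymes and their mitochondrial name partners, with 95% counting intervals, ordered by the difference. The intervals are apart for AARS and AARS2 at the left and overlap in the other pairs.

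HARS and HARS2 are divergent neighbours on chromosome 5, and their start region is shown because both genes start within it. By the RefSeq windows the HARS start (minus strand, 140691370) and the HARS2 start (plus strand, 140691455) are 85 bases apart. The HARS2 window is chr5:140691205-140691504 on the plus strand, with the 84 bases between the starts in capitals.
HARS2: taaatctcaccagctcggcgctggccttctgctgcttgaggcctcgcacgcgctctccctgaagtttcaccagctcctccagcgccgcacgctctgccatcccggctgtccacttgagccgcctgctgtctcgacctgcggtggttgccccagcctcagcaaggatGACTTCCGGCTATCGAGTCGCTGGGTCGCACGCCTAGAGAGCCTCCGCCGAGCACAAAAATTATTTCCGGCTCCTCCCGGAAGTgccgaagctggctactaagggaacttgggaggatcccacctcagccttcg
HARS had 1753 counts in siCYP4F11 and 2179 in siControl, at -0.0074 (-0.10 to 0.08), and HARS2 was at -0.16 with an interval that overlaps it. Exons of HARS on the other strand cover 11.7% of HARS2, and no source used here states whether counting used the strand.

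The cytosolic genes with C/EBP-ATF letters in their start regions were spread through the order of log2 ratios. The 7 cytosolic genes with a match had a median of 0.09 and ran from -0.0078 (AARS) to 0.20 (TARS). The 9 with a window but no match had a median of -0.0039 and ran from -0.26 (FARSA) to 0.17 (SARS). The ranges overlap from -0.0078 to 0.17, and the difference between these sets was not tested. The 12 cytosolic enzymes commonly listed as ATF4-responsive, a list that shares all 7 matched genes, had a median of 0.07 with 9 above 0 and 3 below. The 21 other genes of the amino acid response had a median of 0.05. Of these 21, 1 was called higher and 0 lower, beside 6.92% and 8.62% of all measured genes. The called gene was NUPR1, a stress-induced chromatin protein, at 0.48 (0.06 to 0.91) with 103 counts in siCYP4F11 and 91 in siControl. DDIT3, whose exons overlap those of MARS on the other strand, was at 0.30 (0.19 to 0.41). ATF4 itself was at -0.06 (-0.10 to -0.02), and ASNS, which makes asparagine, at -0.26 (-0.49 to -0.02) with 251 counts in siCYP4F11 and 371 in siControl. The ASNS count is uncertain, since exons of AC079781.5 on the same strand cover 44.6% of its exonic bases. DDIT3, ATF4 and ASNS were named after their values were seen.

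Genes that act beside the synthetases were taken from lists of their pathways. The 15 mitochondrial translation factors, amidotransferase and formyltransferase genes were all measured. Of these, 2 were called lower and 0 higher, beside 8.62% and 6.92% of all measured genes. The median of the list was 0.06, but it was -0.015 after GC correction. The mean was -0.09 and the summed counts gave -0.13 (-0.16 to -0.09), so the list had no stable direction. GATB had 173 counts in siCYP4F11 and 380 in siControl, a log2 ratio of -0.83 (-1.10 to -0.57). GATB is a subunit of the GatCAB amidotransferase, which converts the glutamate that EARS2 places on mitochondrial glutamine tRNA into glutamine. EARS2 and GATB were thus both lower, while the other GatCAB subunits QRSL1 and GATC, named after their values were seen, were at 0.07 (-0.09 to 0.24) and 0.17 (-0.0028 to 0.34). MTRF1L, a mitochondrial release factor, had 151 counts in siCYP4F11 and 294 in siControl, at -0.65 (-0.95 to -0.37). Its count is uncertain, since exons on the other strand cover 34.8% of its exonic bases and part of its sequence recurs in other genes.

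Cytosolic elongation factors deliver charged tRNA to the ribosome or move it there, and some listed subunits recharge the delivering factor with GTP. Of the 7 genes listed, 6 were measured and all 6 were below 0, beside 50.8% of all measured genes. EEF1B2 was only at -0.03 (-0.07 to 0.01), an interval that held 0. Their median was -0.23, and -0.12 after GC correction, with transcripts of 58.5% median GC content. EEF1A2 was called lower, with 2381 counts in siCYP4F11 and 4913 in siControl, at -0.74 (-0.81 to -0.67). EEFSEC, the elongation factor for selenocysteine, was called lower at -0.44 (-0.70 to -0.18). Exons on the other strand cover 15.3% of the exonic bases of EEFSEC. EEF1A2 and EEFSEC were the only 2 genes of the list called lower, beside 8.62% of all measured genes. EEF1A1, the main carrier of charged tRNA, named after its value was seen, was at -0.03 and shares 20.4% of its 50-base words with other genes.

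Of 26 genes of tRNA processing and export, 25 were measured, with a median of 0.02. Among them 2 were called lower and 1 higher, beside 8.62% and 6.92% of all measured genes. The lower genes were the RNase P subunits POP7, at -0.35 (-0.51 to -0.20), and RPP38, at -0.44 (-0.74 to -0.14). Exons on the other strand cover 26.9% of the exonic bases of RPP38. The higher gene was CLP1, a kinase linked to tRNA splicing, at 0.38 (0.0035 to 0.75). Of 3 freestanding proofreading genes DTD1, a D-aminoacyl-tRNA deacylase, was called higher at 0.37 (0.17 to 0.57), beside 6.92% of all measured genes. With so few genes called in each list, nothing is read from these counts beyond the backgrounds given above.

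GC content moved with the log2 ratios over the whole table. Over the 7681 genes with a mean CPM of 20 or more the Spearman correlation of log2 ratio with transcript GC content was -0.43, a description across genes that share the same 2 libraries. Split into 10 equal sets by GC content, those genes had median log2 ratios of 0.13 in the GC-poorest set and -0.13 in the GC-richest. Among the 38 measured members the correlation was -0.21, again a description. FARSA, the lowest cytosolic gene, had the highest transcript GC content of all members at 61.9%, and was at -0.13 (-0.24 to -0.02) after GC correction. It was then no longer the lowest: LARS was at -0.21 (-0.27 to -0.14), FARSB at -0.18 (-0.26 to -0.10) and KARS at -0.18 (-0.26 to -0.10), so the order of the phenylalanine subunits turned round. The order at the upper end changed too. DARS, the highest cytosolic gene before correction at 40.4% GC, was at 0.11 (0.01 to 0.21) after it, and IARS was at 0.11 (0.07 to 0.16). SARS at 0.18, TARS at 0.15 and QARS at 0.15 (0.05 to 0.24) then stood highest. IARS2 was at 0.06 (0.0026 to 0.11) after correction. The GC-corrected value changed sign in 7 measured members: VARS, AARS, HARS and WARS moved above 0, and RARS, EPRS and AIMP1 moved below 0. The medians were then 0.05 for cytosolic and 0.02 for mitochondrial enzymes.

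**Figure D4:**
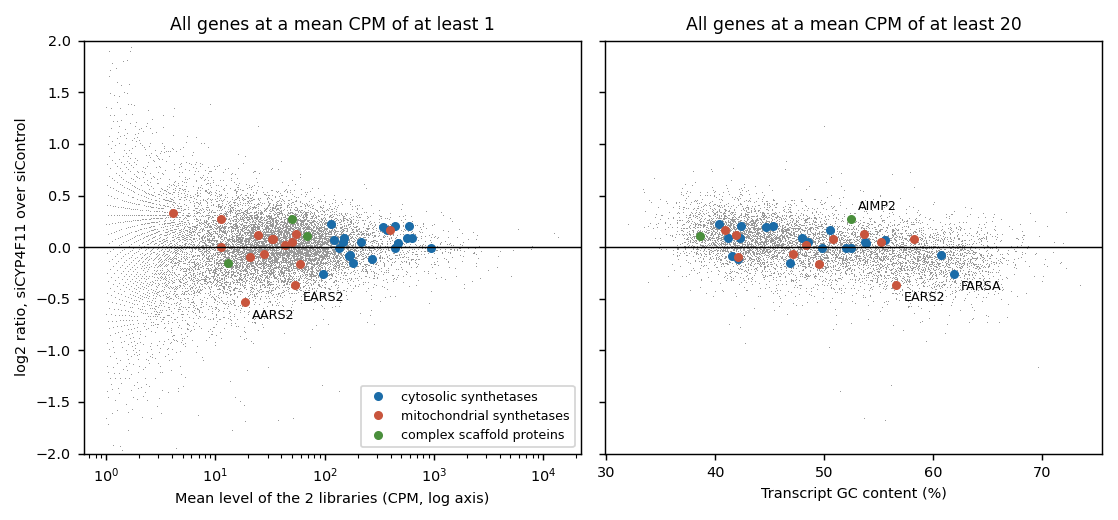
Log2 ratios of siCYP4F11 over siControl are plotted against mean level (left, log axis, all measured genes) and against transcript GC content (right, genes with a mean CPM of 20 or more), with all genes as grey dots and the synthetase genes in colour. Genes beyond a log2 ratio of 2 in size are not drawn. The members lie inside the cloud of all genes, and ratios decline with GC content from a median of 0.13 to -0.13.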

How the data were processed

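The authors deposited whole-number read counts per gene for the 2 libraries, not normalised, with gene model lengths. The build was GRCh38, and the tools featureCounts 2.0.6, HISAT2 2.2.1, edgeR 4.0.16 and fastp are listed, per the submitters' processing notes. No source used here gives their parameters or the strand setting, so reads of overlapping genes may be lost or misplaced. Libraries were strand-specific (dUTP) and made from poly-A RNA, per the labels' protocols. All 58735 gene identifiers matched GENCODE release 29. The table held 0 further sample columns.

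The following was computed from the deposited counts. Library sizes were scaled by TMM (edgeR 4.0.16, R 4.3.3; factors 1.004 for siCYP4F11 and 0.996 for siControl) over the whole table, and 0.5 was added to each count before the log2 ratio. Intervals of 95% are exact Clopper-Pearson for ratios and exact Poisson for levels. They describe counting error alone, as PCR copies were not told apart by molecular identifiers. TPM used the deposited gene lengths. GC content is the mean over a gene's GENCODE transcripts, and the correction is a lowess of span 0.3 (statsmodels 0.14.6, Python 3.11.15). Without replicates no quasi-likelihood test in edgeR could be fitted. The interval method was run on simulated Poisson counts, which hold counting error only and so cannot check for variation between libraries. All 39 members are named, in other lists up to 4 called genes are named, and exceptions are marked. The members and lists were chosen with earlier results of these data known.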

Additional observations from a re-analysis of the deposited data

How the results depend on the processing

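No paired analysis was possible because each group has 1 library and the labels carry no replicate numbers, and leaving out a library was not possible for the same reason. Total counts, DESeq2 1.42.0 size factors, upper-quartile scaling and 2 added to each count left the 3 group medians within the counting interval of the summed counts, and the counts of called genes at 0 higher and 2 lower. With the GC correction the scaffold median was -0.017 and 1 gene was called lower, and 12 of the 39 members moved outside their counting interval. A mean CPM of at least 20 left 1 gene lower, since AARS2 lies under that level. Means in place of medians gave 0.039 for cytosolic and 0.00046 for mitochondrial enzymes. A 1.1-fold threshold called 7 higher and 5 lower, beside 16.7% and 17% of all measured genes. Thresholds of 1.5-fold and 2-fold called 0 higher and 0 lower, beside 2.04% and 3.44% at 1.5-fold. The difference of medians ran from 0.0071 to 0.038 over all alternatives. Leaving out the 8 members with over 10% of exonic bases under exons of other genes, chosen after the data were seen, left 0 higher and 2 lower. Depth limits PARS2 and SARS2 most.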

Other observations

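EEF1G, a subunit of the elongation factor complex that recharges EEF1A with GTP, is listed with 0 counts in both libraries, although EEF1B2 of the same complex had 8161 counts in siCYP4F11 and 10296 in siControl. Exons of AP002990.1 on the same strand cover 99.9% of the exonic bases of EEF1G. The same kind of overlap touches VARS2, where exons of GTF2H4 cover 22.0% and GTF2H4 had 0 counts in siCYP4F11 and 5 in siControl, and EEF1E1, where exons of EEF1E1-BLOC1S5 cover 18.7% and that gene had 0 counts in both. How reads over shared exons were assigned is not given in the sources used here, and its part in these values was not tested.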
